A study of Mus musculus with 30 samples.

Results

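The core circadian clock genes Per1, Per2, Per3, Cry1, Cry2, Dbp, Nr1d1, Nr1d2, Arntl (also named Bmal1) and Clock were followed through inhibition of protein synthesis in 2 mouse cell lines. They are 10 of the 57186 gene rows of the count table and were picked by symbol, with earlier results of these data known. Each matched 1 row, and all 10 passed the filter on low counts in both lines. NIH/3T3, labelled as a fibroblast line, was kept in DMEM with fetal bovine serum, and CGR8, labelled as an embryonic stem cell line, was kept in N2B27 medium with 2i and LIF. Every library, those of 0 h included, came from cells labelled with the genotype ROSA26 SLT knock-in. What drives that insert and whether each line was 1 clone are not given in the labels. RNA was sequenced after 0, 1, 2, 5 and 48 h of cycloheximide, a blocker of translation elongation, at 0.1 µg/mL, in 3 libraries per line and time. The 0 h libraries are the initial time that the later times were set against. The series has no drug-free group at 1, 2, 5 or 48 h, so hours under the drug and hours in culture cannot be told apart. The labels give neither the hour of the day at collection nor any synchronisation of the cells' clocks. They do not say whether the 3 libraries of a group came from separate cultures, so p-values measure the spread between these libraries, which may be technical. In these bulk samples fewer cells of a type and less RNA per cell cannot be told apart.

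The clock is a transcriptional feedback loop. The proteins CLOCK and BMAL1 (the product of Arntl) form a dimer that binds E-boxes and drives the Per, Cry, Nr1d and Dbp genes, and the PER and CRY proteins return to the nucleus and repress that dimer. A second loop runs through the nuclear receptors REV-ERBα (Nr1d1) and REV-ERBβ (Nr1d2), which compete with ROR receptors for ROR elements and repress Arntl. DBP activates transcription from D-boxes. Cultured fibroblasts are known to hold such a loop, in which Per1 and Per2 also respond to serum as early genes, whereas pluripotent stem cells are known to lack overt circadian cycling until they differentiate.

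The promoters show which of these elements lie close to the start sites. Of the 10 genes, 9 had a promoter entry in RefSeq on GRCm38.p6 (all but Per2), giving 13 windows of 250 bases before to 50 bases after a start site. Below are 4 windows, chosen because their genes carry called changes and their windows hold an element of each loop, with the matches to the motifs searched in capitals, each written 5′ to 3′ on the strand of the gene. They are the window of Nr1d1 on the minus strand (chr11:98775328-98775627), one of the windows of Per1 on the plus strand (chr11:69098699-69098998), that of Cry1 on the minus strand (chr10:85185005-85185304) and one of the windows of Arntl on the plus strand (chr7:113207261-113207560).
Nr1d1: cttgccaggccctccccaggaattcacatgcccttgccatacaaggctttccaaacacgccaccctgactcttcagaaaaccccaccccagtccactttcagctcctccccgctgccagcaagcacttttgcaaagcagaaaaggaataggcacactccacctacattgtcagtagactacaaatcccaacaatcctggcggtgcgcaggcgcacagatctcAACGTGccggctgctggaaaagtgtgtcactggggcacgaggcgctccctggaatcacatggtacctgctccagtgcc
Per1: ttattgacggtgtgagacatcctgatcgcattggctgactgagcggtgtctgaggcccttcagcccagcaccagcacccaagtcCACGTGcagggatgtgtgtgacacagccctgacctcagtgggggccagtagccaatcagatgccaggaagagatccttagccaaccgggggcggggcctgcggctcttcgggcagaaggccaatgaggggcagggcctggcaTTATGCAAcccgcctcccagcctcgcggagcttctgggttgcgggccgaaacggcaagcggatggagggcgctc
Cry1: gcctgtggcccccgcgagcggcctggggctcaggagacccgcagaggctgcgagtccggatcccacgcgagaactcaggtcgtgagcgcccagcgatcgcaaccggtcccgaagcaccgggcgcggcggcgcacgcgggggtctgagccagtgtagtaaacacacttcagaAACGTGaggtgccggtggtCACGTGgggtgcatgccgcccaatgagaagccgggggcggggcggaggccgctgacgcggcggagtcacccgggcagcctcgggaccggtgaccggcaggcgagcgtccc
Arntl: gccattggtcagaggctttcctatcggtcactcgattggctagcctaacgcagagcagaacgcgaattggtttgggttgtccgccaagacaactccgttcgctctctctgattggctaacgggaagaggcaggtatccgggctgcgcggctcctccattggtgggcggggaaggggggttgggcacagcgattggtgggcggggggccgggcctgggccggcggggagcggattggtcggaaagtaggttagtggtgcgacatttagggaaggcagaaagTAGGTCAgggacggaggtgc

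Both strands were searched for the E-box CACGTG, the E-prime box CACGTT (which reads as AACGTG from the other strand), the D-box TTATGTAA or TTATGCAA, the ROR element TAGGTCA or its variant TGGGTCA, the cAMP response element TGACGTCA and the CArG box. Positions are those of a match's first base counted from the start site. The Nr1d1 window held an E-prime box at -28. The Per1 window held an E-box at -166 and a D-box at -24. In the Cry1 window an E-prime box began at -79 and an E-box at -60, and in the Arntl window a ROR element began at 30. Of the other members, Per3 held 2 D-boxes and Cry2 an E-prime box, and no window of Clock, Dbp or Nr1d2 held a match. Among all 32851 RefSeq promoter windows of this length, 7.15% held the E-box, 4.68% the E-prime box, 1.66% the D-box, 6.45% the ROR element, 1.79% the cAMP response element and 1.63% the CArG box. The matches are letters in a short window and were not tested as binding sites.

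Libraries held 18.2 to 30.5 M counts, and the marker genes went with the labelled cell types. The 6 markers of embryonic stem cells (Nanog, Pou5f1, Esrrb, Zfp42, Tdgf1, Dppa5a) did not exceed 0.383 CPM (the count divided by the scaled library total) in any NIH/3T3 library and did not fall under 375 CPM in any CGR8 library. Of the 6 fibroblast markers, Col1a1, Col1a2, Col3a1 and Lox did not exceed 0.727 CPM in CGR8, and Fn1 and Vim were expressed in both lines. In some groups 1 library was the lowest of its 3 for most clock genes, by any margin. Replicate C of NIH/3T3 at 1 h was the lowest of its 3 libraries for 9 of the 10 clock genes, against 49.4% of all genes at 1 CPM or more. Replicate A of NIH/3T3 at 2 h was the lowest for 8 of 10 (38.1% of all genes), replicate B of NIH/3T3 at 5 h for 7 of 10 (31.9%), and replicate A of CGR8 at 5 h for 7 of 10 (37.3%). Called changes of the clock genes at those times are also given without that library. A chi-square per degree of freedom compared the counts of 2 replicates over the better covered genes. It was 36.2 and 36.3 for CGR8 0 h replicate B against A and C, and 3.55 between A and C. That library enters every CGR8 comparison with 0 h. The CGR8 pairs ran from 37.5 to 61.7 at 2 h and from 31.7 to 73.7 at 5 h. NIH/3T3 1 h replicate C had 76.2 and 89.1. Replicate A of NIH/3T3 at 2 h had 44.6 against B and 36.7 against C, with 7.24 between B and C. NIH/3T3 5 h replicate B had 4.01 and 3.70.

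**Figure D1:**
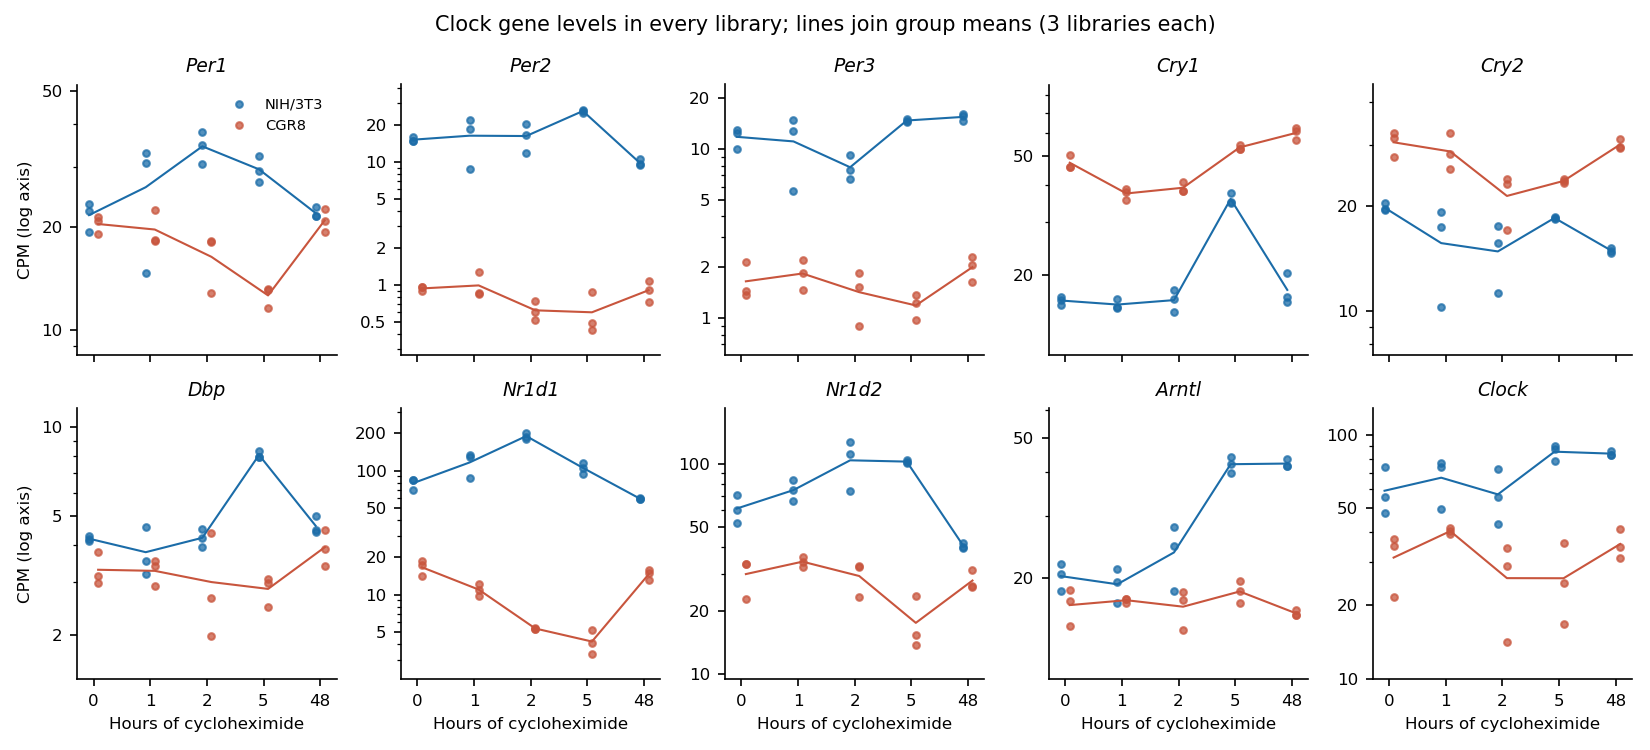
CPM of each clock gene in every library (points, log axis) against hours of cycloheximide (categories, not to scale), with lines through the means of the 3 libraries, NIH/3T3 in blue and CGR8 in red. Nr1d1 peaked at 2 h in NIH/3T3 at 182 to 200.4 CPM and was at 5.27 to 5.42 CPM at that time in CGR8.

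Clock genes called in NIH/3T3 at 2 and 5 h were all higher than at 0 h, and those in CGR8 all lower. In NIH/3T3, 3 and 7 of 10 were called, beside 35% and 51% of all genes. In CGR8, 3 and 4 were called, beside 19.9% and 52.1%. The 2 h counts lie near these shares, and the CGR8 count at 5 h lies below its share. Some genes not called had the other sign. They included Per3 (log2 fold change -0.59) and Cry2 (-0.41) in NIH/3T3 at 2 h and Cry1 (0.17) in CGR8 at 5 h. After 2 h in NIH/3T3, Nr1d1, Nr1d2 and Per1 were higher than at 0 h. After 5 h, 7 genes were called higher, among them Cry1 with a log2 fold change of 1.13, Arntl with 1.06 and Dbp with 0.94. In CGR8 the fallen genes included Nr1d1, with -1.64 at 2 h and -1.98 at 5 h.

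A gene was called where edgeR's quasi-likelihood test gave an adjusted p under 0.05, with Benjamini-Hochberg adjustment over all genes tested. The counts of clock genes are set beside the share of all genes called, because much of the transcriptome was called against 0 h from 2 h on. In NIH/3T3 at 1 h, 0 of the 10 clock genes were called, where 0.732% of the 13941 genes tested were (0.653% higher, 0.0789% lower). An unadjusted p under 0.05 was reached there by 1 clock gene, DESeq2 called 1 and limma's voom with sample quality weights 5. At 2 h, 3 were called, all higher, where 35% of all genes were (16.1% higher, 18.9% lower). The 5 h count of 7, all higher, stands beside 51% of all genes called (24% higher, 27.1% lower). The median log2 change at 5 h was 0.64 over the 10 clock genes and -0.01 over all genes tested. TMM scaling itself sets the typical gene near 0, so each change is relative to the other genes. With library size as the scale the medians were 0.64 and -0.01. At 48 h, 2 clock genes were higher and 3 lower, and 52.3% of all genes were called (26.7% higher, 25.6% lower). Without NIH/3T3 1 h replicate C, 2 clock genes (Nr1d1 and Per1) were called at 1 h. Without 2 h replicate A, 4 were called at 2 h, Arntl being added. Without 5 h replicate B, 6 were called at 5 h, from 0.48 for Nr1d1 to 1.15 for Cry1, and Clock was lost. With any library of 0 h or 48 h left out the count of 5 at 48 h fell to between 2 and 4. The 6 fibroblast markers summed to 12684 to 13956 CPM at 0 h, 9525 to 12418 CPM at 2 h, 10327 to 11324 CPM at 5 h and 15709 to 15921 CPM at 48 h. Of them 3 were called lower at 2 h, 1 higher and 3 lower at 5 h, and 4 higher and 1 lower at 48 h. Their part in the clock gene values was not tested.

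In CGR8 at 1 h, 0 clock genes were called and 0.27% of the 15933 genes tested (0.144% higher, 0.126% lower). Higher genes were 53.5% of all those called there and 68.4% with library size as the scale. An unadjusted p under 0.05 was reached by 2 clock genes, and DESeq2 and voom called 2 each. At 2 h, 3 clock genes were called, all lower, where 19.9% of all genes were (8.97% higher, 11% lower). This count was 1 without CGR8 0 h replicate A, without CGR8 2 h replicate C, or where the compared groups were fitted alone. At 5 h, 4 were called, all lower, where 52.1% of all genes were (24.9% higher, 27.2% lower), with a median log2 change of -0.42 over the clock genes and -0.01 over all genes. With library size as the scale these medians were -0.52 and -0.12. Without CGR8 5 h replicate A, 3 were called, and Cry2 was lost. At 48 h, 1 was called, which was higher, where 27.8% of all genes were (12.2% higher, 15.6% lower). Markers of differentiated derivatives of stem cells, 12 genes of which 10 were tested, summed to 299 to 316 CPM at 0 h, 210 to 251 CPM at 5 h and 506 to 683 CPM at 48 h in CGR8, with 5 higher and 3 lower at 48 h, and Fgf5 and Sox17 never above 0.404 CPM. Dnmt3b alone had a mean of 247 CPM at 0 h and 562 CPM at 48 h, whereas Eomes went from 22.0 to 3.77 CPM. The 6 stem cell markers summed to 4339 to 4572 CPM at 0 h, 5931 to 7025 CPM at 5 h and 4828 to 5261 CPM at 48 h. Of them 5 were called higher and 1 lower at 5 h, and 2 higher and 1 lower at 48 h. Esrrb had a mean of 880 CPM at 0 h and 440 CPM at 5 h. The fibroblast markers, here mainly Fn1 and Vim, summed to 1364 to 1448 CPM at 0 h, 728 to 998 CPM at 5 h and 1582 to 1755 CPM at 48 h. The part of these shifts in the clock gene values was not tested.

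**Figure D2:**
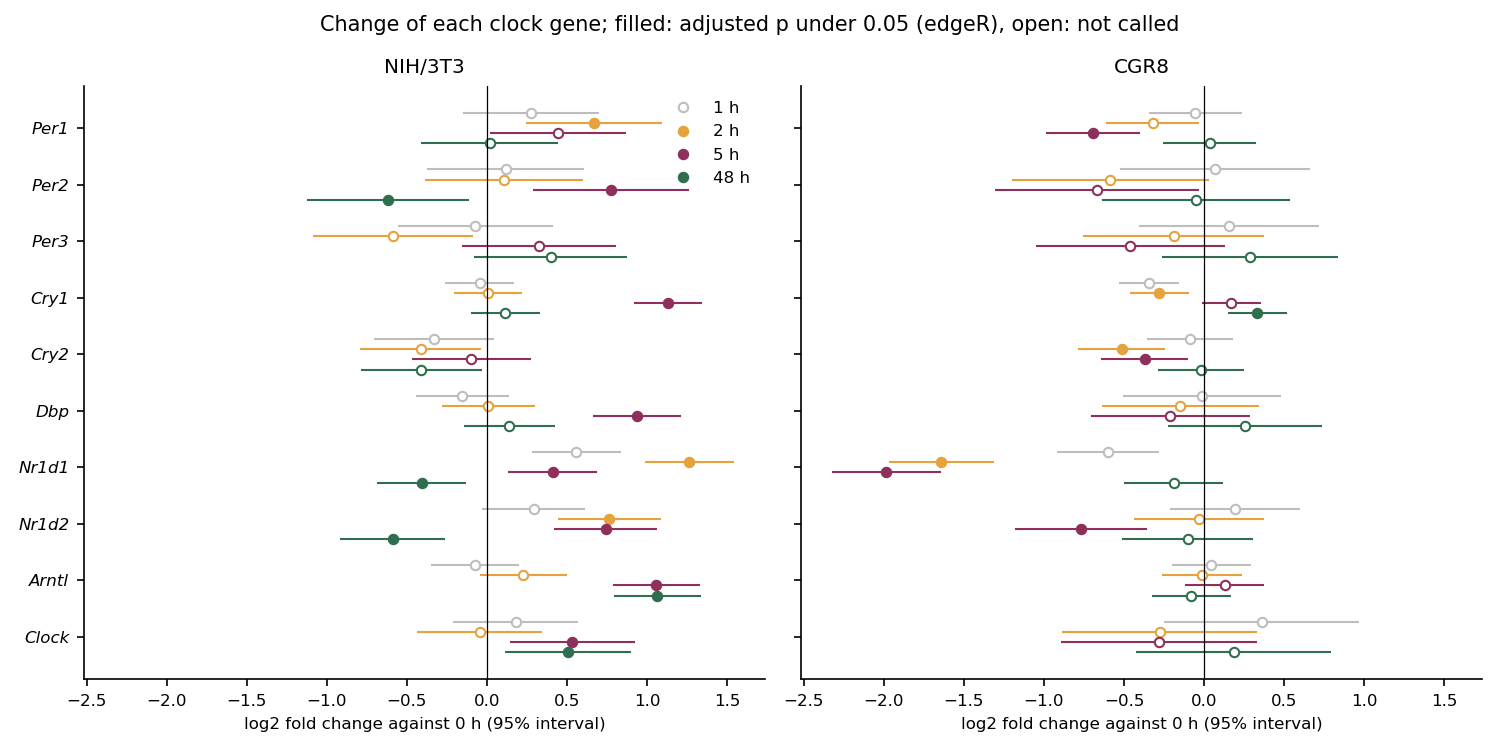
Fitted log2 fold change against 0 h with its 95% interval for each clock gene at 1, 2, 5 and 48 h, NIH/3T3 on the left and CGR8 on the right, filled where the adjusted p was under 0.05. Filled points at 2 and 5 h lie right of 0 in NIH/3T3 (3 and 7 genes) and left of 0 in CGR8 (3 and 4 genes).

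Nr1d1 encodes REV-ERBα, the repressor of Arntl, and had the widest swing of the 10 genes in both lines. In NIH/3T3 its level in replicates A, B and C was 83.9, 70.2 and 83.9 CPM at 0 h, 134, 129 and 87.2 CPM at 1 h, and 200.4, 182 and 189 CPM at 2 h. It was 105, 94.9 and 116 CPM at 5 h and 59.0, 60.9 and 59.6 CPM at 48 h. Every library at 2 h lay above every library of each other time, and every library at 48 h lay below all others. The log2 fold change was 1.26 ± 0.13 (SE) at 2 h (adjusted p = 5.5e-06) and 0.41 ± 0.13 at 5 h (adjusted p = 0.015). At 48 h it was -0.41 ± 0.13 (adjusted p = 0.0157). The 2 h rise was called under all 14 alternatives tried and was 1.24 without 2 h replicate A. The 5 h call was lost without NIH/3T3 0 h replicate B (adjusted p = 0.0753) or 5 h replicate C (0.0739), and the 48 h call was lost with library size as the scale (0.0628), without 0 h replicate A (0.0548) and without 0 h replicate C (0.0563). At 1 h the value was 0.56 ± 0.13 with an adjusted p of 0.0624, and it passed without 1 h replicate C (0.71, adjusted p = 0.000201), with no filter on low counts, and in DESeq2 and voom.

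In CGR8 the same gene moved the other way. Nr1d1 was at 17.2, 18.6 and 14.1 CPM at 0 h, 12.2, 11 and 9.83 CPM at 1 h and 5.42, 5.34 and 5.27 CPM at 2 h. It reached 3.33, 4.07 and 5.17 CPM at 5 h and was back at 13.1, 14.9 and 15.8 CPM at 48 h. The groups of 0, 1, 2 and 5 h did not overlap in this order, and that of 48 h overlapped with 0 h. The log2 fold change was -1.64 ± 0.16 at 2 h (adjusted p = 1.22e-05) and -1.98 ± 0.16 at 5 h (adjusted p = 3.84e-07), and both calls held under every alternative, with -1.83 at 5 h when replicate A was left out. At 1 h it was -0.60 ± 0.15 (adjusted p = 0.135) and at 48 h -0.19 ± 0.15 (adjusted p = 0.364). The 1 h value passed with no filter on low counts, in DESeq2 and in voom. From 5 to 48 h Nr1d1 rose by 1.79 ± 0.16 (adjusted p = 3.31e-07).

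REV-ERBβ, the product of Nr1d2, shares the repressor role of REV-ERBα. In NIH/3T3 Nr1d2 stood at 60.3, 71.0 and 52.3 CPM at 0 h, 74.2, 126 and 111 CPM at 2 h, 101, 102 and 104 CPM at 5 h, and 40.3, 41.8 and 39.8 CPM at 48 h. All libraries of 2 and 5 h lay above those of 0 h, with replicate A at 2 h nearest to them, and those of 48 h lay below. The rises were 0.76 ± 0.15 at 2 h (adjusted p = 0.00159), or 0.97 without replicate A (adjusted p = 2.19e-05), and 0.74 ± 0.15 at 5 h (adjusted p = 0.000725), and at 48 h the gene fell by 0.59 ± 0.15 (adjusted p = 0.00428). In CGR8 Nr1d2 was at 33.4, 22.8 and 33.4 CPM at 0 h and 13.7, 15.4 and 23.4 CPM at 5 h. These ranges overlapped, because replicate B of 0 h was low and replicate C of 5 h was high. The 5 h change of -0.77 ± 0.19 was called (adjusted p = 0.00377), as it was without replicate A of 5 h (-0.61, adjusted p = 0.0224). At 2 h the value in CGR8 was -0.03 ± 0.19 (adjusted p = 0.931), so the 2 paralogs had different readings at that time in this line, a difference between genes that was not tested.

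The Period genes encode the repressors that carry the negative feedback. Per1, which responds early to many stimuli, was at 22.4, 19.4 and 23.4 CPM at 0 h in NIH/3T3, at 30.9, 33.0 and 14.7 CPM at 1 h and at 30.7, 37.9 and 34.9 CPM at 2 h. All libraries of 2 h were above those of 0 h, and replicate C of 1 h was below them. At 1 h the log2 fold change was 0.28 ± 0.20 (adjusted p = 0.664), and without that replicate it was 0.54 and called (adjusted p = 0.00851). At 2 h it was 0.67 ± 0.20 (adjusted p = 0.0174), and 0.76 without replicate A. That call was lost without NIH/3T3 0 h replicate B (adjusted p = 0.0655) or 2 h replicate B (0.0625). At 5 h the value was 0.44 ± 0.20 (adjusted p = 0.0756). It passed with no filter, in DESeq2, in voom and where the compared groups were fitted alone. In CGR8 Per1 was at 21.5, 20.8 and 19.1 CPM at 0 h, 18.1, 18.2 and 12.8 CPM at 2 h, 11.6, 13.2 and 13.1 CPM at 5 h and 20.9, 19.4 and 22.6 CPM at 48 h. The 5 h libraries lay below those of 0 and 48 h. Per1 fell by 0.69 ± 0.14 at 5 h (adjusted p = 0.000662), or by 0.62 without replicate A (adjusted p = 0.00466), and from 5 to 48 h it rose by 0.73 ± 0.14 (adjusted p = 0.000348).

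Per2, whose product is the best studied partner of the CRY proteins, was called at 5 h in NIH/3T3 and not at 2 h. It was at 14.9, 15.9 and 14.8 CPM at 0 h, 26.0, 25.3 and 26.7 CPM at 5 h and 9.70, 10.6 and 9.38 CPM at 48 h. Each of these 3 groups lay apart from the others. At 1 and 2 h its libraries spread from 8.71 to 21.8 CPM and from 11.9 to 20.5 CPM, around the 0 h level. The rise at 5 h was 0.77 ± 0.23 (adjusted p = 0.00982), and the 48 h value was -0.62 ± 0.24 (adjusted p = 0.0392). The latter call was lost under 8 of 14 alternatives, among them the omission of any of the 6 libraries of 0 and 48 h (adjusted p = 0.0628 to 0.0989). In CGR8 Per2 was at a low level, with 0.888 to 0.963 CPM (22 to 30 counts) at 0 h and 0.428 to 0.884 CPM (11 to 18 counts) at 5 h. Its 5 h value there was -0.67 ± 0.30 (adjusted p = 0.0727), which was called without CGR8 5 h replicate B and with library size as the scale.

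Per3, the third member of the family, was not called at any time against 0 h in either line. In NIH/3T3 it was at 12.5, 13.0 and 9.96 CPM at 0 h, at 6.65, 9.29 and 7.50 CPM at 2 h and at 15.7, 16.1 and 14.7 CPM at 48 h. The 2 h libraries lay below those of 0 h, with a log2 value of -0.59 ± 0.24 (adjusted p = 0.0634) that passed in 5 alternatives: with the replicate letter as a block, with no filter, in DESeq2, in voom and where the compared groups were fitted alone. In CGR8 Per3 had 21 to 63 counts per library, 0.904 to 2.31 CPM. From 5 to 48 h it rose there by 0.75 ± 0.27 (adjusted p = 0.0278), a call that was lost when CGR8 5 h replicate A or B, or 48 h replicate A or C, was left out (adjusted p = 0.0556 to 0.107).

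The cryptochromes are the main repressors of the CLOCK and BMAL1 dimer. Cry1 in NIH/3T3 was at 16.5, 16.9 and 15.9 CPM at 0 h, 15, 16.7 and 17.7 CPM at 2 h, 35.2, 34.9 and 37.7 CPM at 5 h and 16.2, 16.9 and 20.4 CPM at 48 h. Only the 5 h libraries stood apart from all other times. The 5 h rise was 1.13 ± 0.10 (adjusted p = 3.52e-07), called under every alternative, and from 5 to 48 h Cry1 fell by 1.01 ± 0.10 (adjusted p = 2.55e-07). In CGR8 Cry1 was at 46.1, 50.6 and 46.0 CPM at 0 h, 35.5, 38.9 and 38.1 CPM at 1 h, 41.0, 38.3 and 38.3 CPM at 2 h, 54.7, 53.0 and 52.9 CPM at 5 h and 56.8, 62.3 and 60.6 CPM at 48 h. The libraries of 1 and 2 h overlapped with each other and lay below those of 0 h, whereas those of 5 h lay above 0 h and those of 48 h were highest. The 1 h value was -0.34 ± 0.09 (adjusted p = 0.162), called in DESeq2 and voom. The 2 h change was -0.28 ± 0.09 (adjusted p = 0.0367), lost in 7 of 14 alternatives, and the 48 h rise was 0.33 ± 0.09 (adjusted p = 0.0097), lost with no filter on low counts (0.0849). At 5 h the value was 0.17 ± 0.09 (adjusted p = 0.115), called with the filter at 5 CPM, in DESeq2 and in voom.

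Cry2, the paralog of Cry1, was called lower than at 0 h in CGR8 at 2 and 5 h. It was at 32.6, 27.8 and 31.4 CPM at 0 h, 23.2, 23.9 and 17.1 CPM at 2 h, and 24.1, 23.6 and 23.4 CPM at 5 h. All libraries of 2 and 5 h lay below those of 0 h. The changes were -0.51 ± 0.13 at 2 h (adjusted p = 0.0123) and -0.37 ± 0.13 at 5 h (adjusted p = 0.023). The first was lost without CGR8 0 h replicate A (adjusted p = 0.0594), without 2 h replicate C (0.0648) and where the compared groups were fitted alone (0.0787). The second was lost when 0 h replicate A or C, or 5 h replicate A or B, was left out (adjusted p = 0.0508 to 0.083). In NIH/3T3 Cry2 was called at no time, with values of -0.41 ± 0.18 at 2 h (adjusted p = 0.0809), -0.10 ± 0.18 at 5 h (adjusted p = 0.663) and -0.41 ± 0.18 at 48 h (adjusted p = 0.0632). The 2 h value passed with no filter and in voom. The 48 h value passed under these and also in DESeq2 and where the compared groups were fitted alone.

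Arntl and Clock encode the activators. In NIH/3T3 Arntl was at 21.8, 18.3 and 20.5 CPM at 0 h, 18.3, 24.6 and 27.9 CPM at 2 h, 44.1, 39.8 and 42.2 CPM at 5 h and 41.6, 41.7 and 43.3 CPM at 48 h. The libraries of 5 and 48 h overlapped with each other and lay above all of 0, 1 and 2 h. At 2 h the value was 0.23 ± 0.13 (adjusted p = 0.181), and without replicate A, the lowest, it was 0.39 and called (adjusted p = 0.00783). The rise was 1.06 ± 0.13 at 5 h (adjusted p = 7.12e-06) and 1.06 ± 0.13 at 48 h (adjusted p = 4.85e-06), both called under every alternative. Between 5 and 48 h the difference was 0.01 ± 0.13, with a 95% interval of -0.26 to 0.27. In CGR8 Arntl ran from 14.2 to 19.5 CPM over all 15 libraries, and each time overlapped with the next in order of level. Its 5 h value was 0.13 ± 0.12 (adjusted p = 0.375) and its 48 h value -0.08 ± 0.12 (adjusted p = 0.66).

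Clock, the partner of BMAL1, spread more between replicates. In NIH/3T3 it was at 55.5, 73.8 and 47.8 CPM at 0 h, 78.4, 87.4 and 90.3 CPM at 5 h and 82.8, 86.1 and 82.6 CPM at 48 h. The later groups lay above 0 h, where replicate B was close to them. The rises were 0.53 ± 0.18 at 5 h (adjusted p = 0.0237) and 0.51 ± 0.18 at 48 h (adjusted p = 0.0297). Leaving out 0 h replicate A or C, or 5 h replicate B or C, ended the first call (adjusted p = 0.063 to 0.101). Leaving out 0 h replicate A or C, or any library of 48 h, ended the second (0.0578 to 0.134). In CGR8 Clock was called at no time, and single libraries lay as low as 14.2 CPM (2 h replicate A) and 16.7 CPM (5 h replicate A) beside 0 h libraries of 35.0, 21.7 and 37.5 CPM. The 5 h value of Clock there was -0.28 with all libraries and -0.03 without replicate A.

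Dbp, a D-box activator and a direct output of the loop, had 72 to 201 counts per library in NIH/3T3. It was at 4.30, 4.18 and 4.14 CPM at 0 h, 4.53, 4.24 and 3.94 CPM at 2 h, 8.28, 7.91 and 7.95 CPM at 5 h and 4.44, 4.51 and 5.00 CPM at 48 h. The 5 h libraries stood apart from all others. The rise at 5 h was 0.94 ± 0.13 (adjusted p = 2.37e-05), called under each alternative that kept the gene. In CGR8 Dbp ran from 1.98 to 4.51 CPM, with a 5 h value of -0.21 ± 0.23 (adjusted p = 0.472).

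Between 5 and 48 h the clock genes that were called fell in NIH/3T3 and rose in CGR8, and the other 5 in each line were not called. In NIH/3T3, 5 of the 10 clock genes were lower at 48 h than at 5 h and 0 higher, where 65.6% of all genes were called (34.1% higher, 31.4% lower). They were Per2 (-1.39 ± 0.24), Nr1d2 (-1.33 ± 0.16), Cry1 (-1.01 ± 0.10), Nr1d1 (-0.82 ± 0.13) and Dbp (-0.80 ± 0.13). The largest adjusted p among the 5 was that of Per2, 7.59e-05, and each held under every alternative. Arntl (0.01 ± 0.13), Clock (-0.03 ± 0.18) and Per3 (0.07 ± 0.22) had values near 0. In CGR8, 5 were higher at 48 h than at 5 h and 0 lower, where 57.5% of all genes were called (28.9% higher, 28.6% lower): Nr1d1, Per3, Per1, Nr1d2 (0.66 ± 0.20, adjusted p = 0.00828) and Cry2 (0.35 ± 0.13, adjusted p = 0.028). Cry1 there had 0.16 ± 0.09 (adjusted p = 0.124), of the same sign as its value at 5 h against 0 h. Without CGR8 5 h replicate A, or without 48 h replicate C, 3 were called. Those lost without the former were Per3 and Cry2, and Nr1d1, Per1 and Nr1d2 then had 1.64, 0.66 and 0.51. The comparison of 48 h with 5 h shares its 5 h libraries with that of 5 h against 0 h, so the opposite signs are not independent of each other.

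The order of the times differed from gene to gene in NIH/3T3. Nr1d1 and Per1 had their highest mean at 2 h, at 190.4 ± 9.27 and 34.5 ± 3.64 CPM (SD, n = 3). For Nr1d1 no other time overlapped with 2 h, whereas Per1 at 2 h overlapped with 5 h. The highest mean of Nr1d2, 104 ± 26.7 CPM at 2 h, overlapped with its 102 ± 1.52 CPM at 5 h. Per2, Cry1 and Dbp had theirs at 5 h, with no overlap with any other time, at 26.0 ± 0.734, 35.9 ± 1.55 and 8.05 ± 0.203 CPM. Arntl and Clock overlapped between 5 and 48 h, their highest times. From its lowest to its highest mean, Nr1d1 spanned 3.18 times in NIH/3T3 and 3.97 times in CGR8, the widest in each line, and Cry2 spanned 1.34 times in NIH/3T3 and Arntl 1.15 times in CGR8, the narrowest.

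The 2 lines already differed at 0 h, which is a difference of line and medium together. CGR8 was called lower for 6 clock genes and higher for 2, where 79.1% of the 17549 genes tested in all 30 libraries were called (42.8% higher, 36.3% lower). The median log2 difference (CGR8 minus NIH/3T3) was -0.67 over the clock genes and 0.15 over all genes. Per2 was lower by a log2 of -4.05 ± 0.27 (adjusted p = 8.35e-14), Per3 by -2.89 ± 0.26 (6.08e-11) and Nr1d1 by -2.30 ± 0.15 (1.76e-14). Nr1d2 was lower by -1.08 ± 0.18 (4.18e-06) and Clock by -0.95 ± 0.26 (0.00132). Cry1 was higher by 1.49 ± 0.09 (6.76e-15) and Cry2 by 0.58 ± 0.16 (0.00181). The call for Arntl (-0.32 ± 0.13, adjusted p = 0.0231) was lost under 8 alternatives, among them RLE factors and DESeq2, and when CGR8 0 h replicate B was left out (adjusted p = 0.161). Per1 (-0.13 ± 0.18, adjusted p = 0.511) and Dbp (-0.39 ± 0.19, adjusted p = 0.0611) were not called, with 95% intervals of -0.51 to 0.24 and -0.79 to 0.00. CPM of the lines was scaled within each line and differed by at most 4.27% from a scale of all 30 libraries.

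Whether the lines responded differently was tested as an interaction in 1 fit of all 30 libraries, with each value the change in CGR8 minus that in NIH/3T3. At 1 h Nr1d1 alone among the 10 differed, by -1.14 ± 0.20 (adjusted p = 0.00458), where 0.16% of all genes were called (0.0171% higher, 0.142% lower). At 2 h it differed by -2.85 ± 0.21 (adjusted p = 2.68e-10), where 2.02% were called (0.866% higher, 1.16% lower). Per1 had -0.94 ± 0.26 at 2 h with an adjusted p of 0.0551, which passed in 7 alternatives. Without NIH/3T3 2 h replicate A, 3 clock genes were called at 2 h, with -1.02 for Per1 (adjusted p = 0.0451) and -0.94 for Nr1d2 (adjusted p = 0.0275, against -0.74 ± 0.25 and 0.171 with all libraries), and without CGR8 2 h replicate A, 2 were called. At 5 h, 7 clock genes were called, all with the lower change in CGR8, where 13.3% of all genes were called (8.18% higher, 5.09% lower). That background split followed the scale: the higher genes were 61.6% of all those called with TMM factors, 45.9% with RLE factors and 31.5% with library size, which moved the median of all genes from 0.13 to -0.06. At 2 h the share was 42.8% with TMM and 31.8% with RLE factors. The 7 clock genes at 5 h were called lower under each of these scales. At 48 h only Arntl differed among the 10, by -1.16 ± 0.18 (adjusted p = 2.28e-05), where 21.9% of all genes were called (9.78% higher, 12.1% lower). Its values were 1.06 in NIH/3T3 and -0.08 in CGR8.

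The 7 line differences at 5 h ran from -0.84 to -2.31. For Nr1d1 the difference was -2.31 ± 0.21 (adjusted p = 2.1e-08), for Nr1d2 -1.42 ± 0.26 (0.000318) and for Per1 -1.05 ± 0.26 (0.00734). Nr1d1 and Nr1d2 were called in both lines, with opposite signs. Values of opposite sign were also those of Per1, not called in NIH/3T3, and of Per2 and Dbp, not called in CGR8. Dbp differed by -1.06 ± 0.27 (0.00882), Cry1 by -0.87 ± 0.12 (2.01e-05) and Arntl by -0.84 ± 0.18 (0.00186), with a rise in NIH/3T3 and no call in CGR8. Per2 differed by -1.36 ± 0.44 (0.0399), on few counts in CGR8, and its call was lost in 10 of the fits that left out 1 library (adjusted p up to 0.102). The others were Clock (-0.73 ± 0.36, adjusted p = 0.192), Per3 (-0.70 ± 0.39, adjusted p = 0.262) and Cry2 (-0.18 ± 0.23, adjusted p = 0.674). Their 95% intervals ran from -1.47 to 0.01, from -1.50 to 0.11 and from -0.65 to 0.28. The comparisons of the several times share the 0 h libraries of each line.

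**Figure D3:**
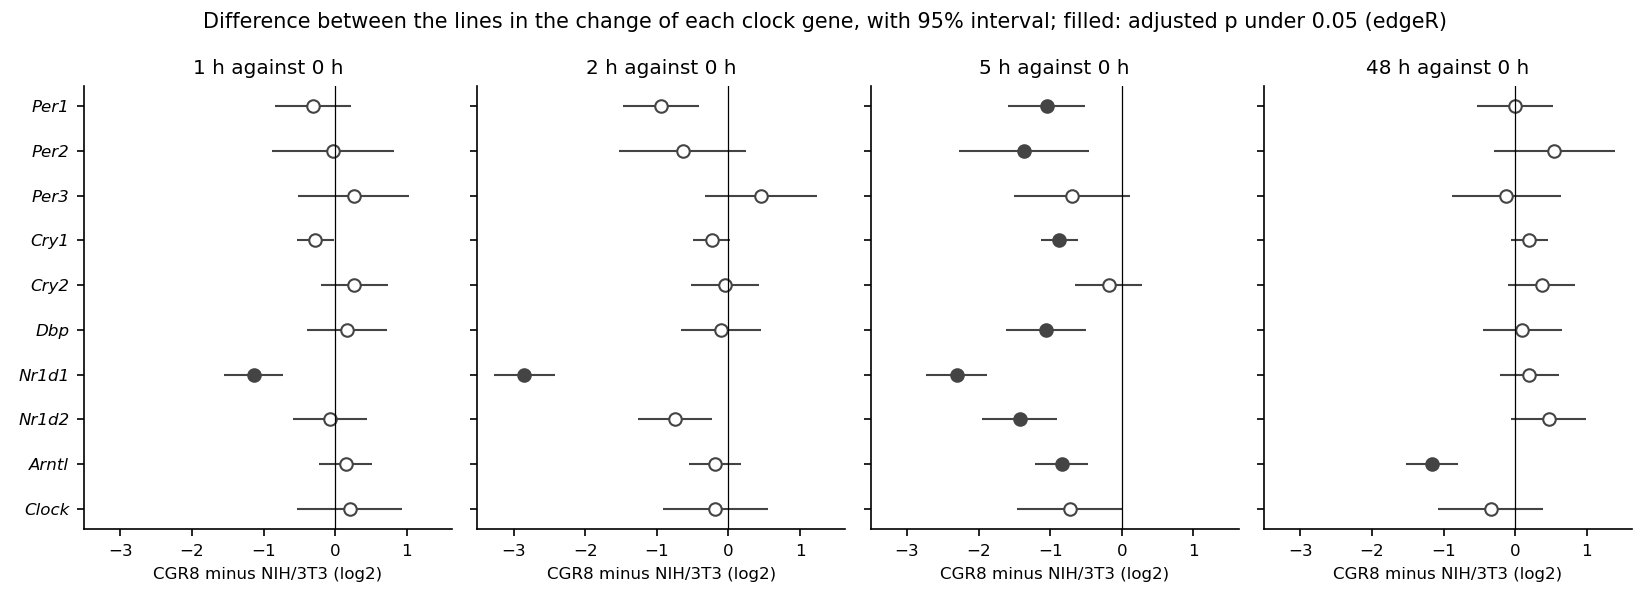
Difference between the lines in the log2 change against 0 h (CGR8 minus NIH/3T3, with 95% interval) for each clock gene at 1, 2, 5 and 48 h, filled where the adjusted p was under 0.05. Nr1d1 lies apart from the other genes at 1 and 2 h, 7 genes are filled at 5 h, and Arntl alone at 48 h.

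Several clock genes overlap another gene, and the use of strand in counting is not given in the sources used here, so reads of the overlap could be assigned to either gene. In the GENCODE M21 annotation 263 of the 3077 exon bases of Nr1d1 are shared with Thra, which encodes a thyroid hormone receptor on the opposite strand. Thra was at 39.2, 38.9 and 38.7 CPM at 0 h, 40.4, 26.3 and 27.7 CPM at 2 h, and 26.9, 23.7 and 24.8 CPM at 5 h in NIH/3T3. It lay below 0 h at 5 h (-0.63 ± 0.13, adjusted p = 0.000547) while Nr1d1 was above it, and at 48 h the signs were the reverse (Thra 0.57 ± 0.12, adjusted p = 0.000978). In CGR8 both fell at 5 h, Thra from 10.5 ± 0.678 to 8.41 ± 0.879 CPM (-0.32 ± 0.12, adjusted p = 0.0403) and Nr1d1 from 16.7 ± 2.31 to 4.19 ± 0.927 CPM (SD, n = 3). Dbp shares 539 of 2993 exon bases with Sphk2, a sphingosine kinase gene on the opposite strand. Sphk2 went from 27.1, 22.7 and 29.4 CPM at 0 h to 9.93, 10.2 and 10.2 CPM at 5 h in NIH/3T3, a change of -1.39 ± 0.13 (adjusted p = 7.78e-07) where Dbp rose. In CGR8 Sphk2 fell from 57.6 ± 6.76 to 31.6 ± 3.55 CPM at 5 h (-0.87 ± 0.13, adjusted p = 7.39e-05), far above the level of Dbp, which was at 3.31 ± 0.429 and 2.85 ± 0.318 CPM and not called. The genes that overlap Cry2 on the opposite strand (D930015M05Rik, 295 shared exon bases) and Arntl (Gm45355, 33 shared exon bases) did not exceed 0.221 and 0.222 CPM in any library. Per3 overlaps Camta1 and Clock overlaps Ube2n-ps1 and Gm43658 on the same strand, with 0 exon bases shared.

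**Figure D4:**
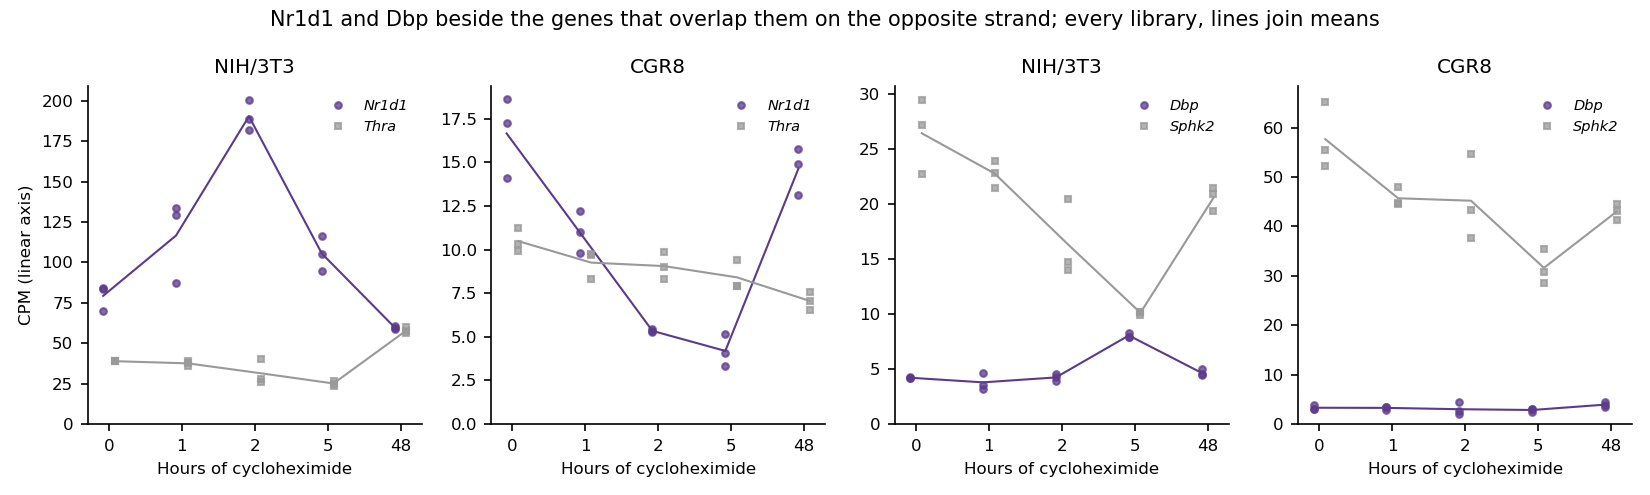
CPM per library (linear axis) of Nr1d1 with Thra and of Dbp with Sphk2, each pair on opposite strands with shared exon bases, in NIH/3T3 and CGR8, with lines through the means of 3 libraries. In NIH/3T3 at 5 h the clock gene of each pair was above its 0 h level and the overlapping gene below it.

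A wider list of 25 clock-related genes was examined beside the core, of which 21 were tested in each line and 22 in the fit of both. In NIH/3T3, 1 of 21 was called at 1 h (0.732% of all genes), 10 at 2 h (5 higher, 5 lower, beside 35% of all genes), 14 at 5 h (6 higher, 8 lower, beside 51%) and 13 at 48 h (6 higher, 7 lower, beside 52.3%). In CGR8, 0 of 21 were called at 1 h (0.27% of all genes), 5 at 2 h, all lower (19.9%), 12 at 5 h (2 higher, 10 lower, beside 52.1%) and 7 at 48 h (3 higher, 4 lower, beside 27.8%). The CGR8 counts at 2, 5 and 48 h lie near these shares of all genes. At 1 h in CGR8 edgeR gave 0 of the list an unadjusted p under 0.05, and DESeq2 and voom called 0. The median log2 change of the tested genes at 5 h was -0.25 in NIH/3T3 and -0.37 in CGR8, beside -0.01 over all genes in each line. In the test of the line difference 0 of 22 were called at 1 h (0.16% of all genes), where 1 had an unadjusted p under 0.05 in edgeR and DESeq2 and voom called 0. At 2 h 2 were called, both lower (2.02%). The count at 5 h was 11 (3 higher, 8 lower), beside 13.3% of all genes (8.18% higher, 5.09% lower). At 48 h it was 12 (6 higher, 6 lower), beside 21.9% (9.78% higher, 12.1% lower).

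Among the transcriptional repressors, Nfil3 and Bhlhe40 had the largest rises in NIH/3T3. Nfil3, which represses D-box genes, went from 8.87 ± 0.84 CPM at 0 h (SD, n = 3) to 41.9 ± 5.2 CPM at 2 h, a log2 change of 2.23 ± 0.11 (adjusted p = 1.04e-09), and was already higher at 1 h (0.76 ± 0.11, adjusted p = 0.00201). Bhlhe40, or DEC1, which competes at E-boxes, rose by 1.58 ± 0.10 at 2 h (adjusted p = 1.33e-08) and 0.93 ± 0.10 at 5 h. In CGR8 Bhlhe40 fell by 1.09 ± 0.31 at 5 h (adjusted p = 0.00754), and Nfil3, at 1.94 CPM at 0 h, was not called at any time. The line differences at 2 h were -2.61 ± 0.24 for Nfil3 (adjusted p = 1.57e-08) and -2.01 ± 0.30 for Bhlhe40 (adjusted p = 6.91e-05). Ciart, or CHRONO, a repressor of the CLOCK and BMAL1 dimer, fell in both lines. Its level in NIH/3T3 went from 4.29 ± 0.50 CPM to 0.529 ± 0.032 CPM at 48 h (-3.00 ± 0.21, adjusted p = 2.27e-08), and in CGR8 its change was -1.75 ± 0.19 at 5 h (adjusted p = 4.34e-06) and -0.69 ± 0.18 at 48 h.

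Rora, the ROR receptor that activates Arntl, fell by 1.36 ± 0.22 at 5 h in NIH/3T3 (adjusted p = 7.78e-05) and rose by 1.32 ± 0.18 at 48 h (adjusted p = 1.52e-05). Of the PAR bZIP relatives of Dbp, Hlf was higher at 5 h (0.77 ± 0.17) and 48 h (0.81 ± 0.17) in NIH/3T3, whereas Tef was lower at 48 h in NIH/3T3 (-1.08 ± 0.09) and CGR8 (-0.49 ± 0.11). In CGR8 Hlf fell by 0.77 ± 0.20 at 5 h and rose by 0.95 ± 0.18 at 48 h. Timeless, a replication fork factor long tied to the clock, was lower at 5 and 48 h in NIH/3T3 (-0.57 ± 0.11 and -0.85 ± 0.12). In CGR8 Timeless went from 165 ± 10.9 CPM at 0 h to 107 ± 3.37 CPM at 5 h and 128 ± 3.14 CPM at 48 h (SD, n = 3). Among the kinases and turnover genes, Gsk3b and the cell cycle kinase gene Wee1 fell at 2 h in both lines, with -0.44 ± 0.14 and -0.45 ± 0.11 in NIH/3T3 and -0.60 ± 0.16 and -0.63 ± 0.12 in CGR8. Csnk1e, a kinase of PER proteins, fell by 0.82 ± 0.11 at 48 h in CGR8. In NIH/3T3 Csnk1e went from 89.5 ± 6.14 CPM at 0 h to 58.0 ± 0.942 CPM at 48 h (SD, n = 3). The deubiquitinase gene Usp2 fell by 1.41 ± 0.24 at 5 h in CGR8. Arntl2, a paralog of Arntl at 0.865 CPM, rose by 1.37 ± 0.26 at 5 h in CGR8 (adjusted p = 0.000391), and Nampt, of NAD synthesis, rose there at 5 h (0.44 ± 0.10) and 48 h (0.52 ± 0.10). In NIH/3T3 Nampt was at 111 ± 5.82 CPM at 0 h, 153 ± 5.19 CPM at 5 h and 82.6 ± 2.72 CPM at 48 h (SD, n = 3).

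**Figure D5:**
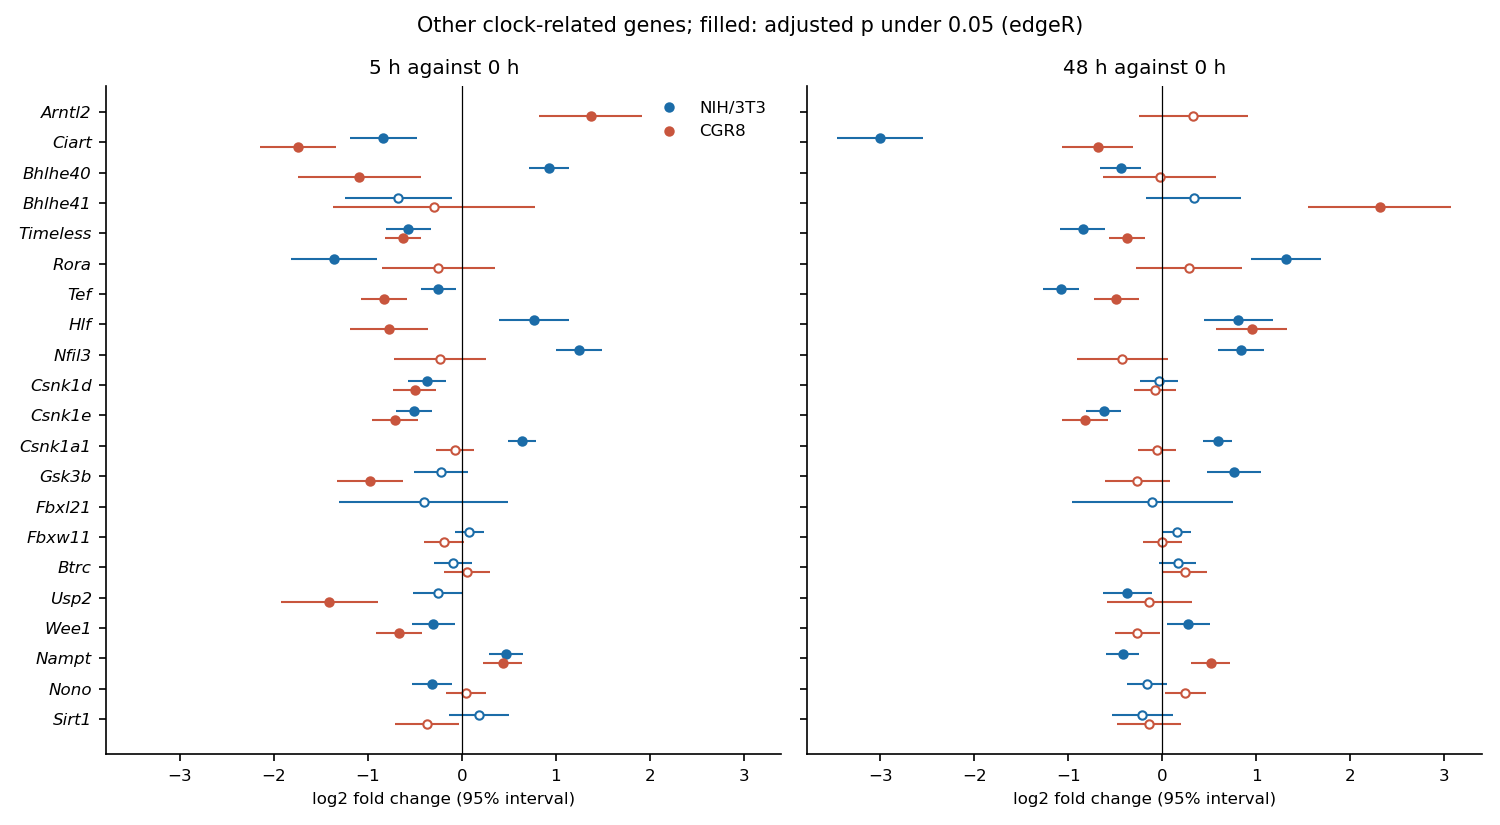
Log2 fold change with its 95% interval at 5 h (left) and 48 h (right) against 0 h for genes of the wider list, NIH/3T3 in blue and CGR8 in red, filled where the adjusted p was under 0.05. At 5 h Bhlhe40 (0.93 and -1.09) and Hlf (0.77 and -0.77) are higher in NIH/3T3 and lower in CGR8.

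As a description of shape, the gene most alike in profile was found for each clock gene of at least 5 CPM, by Pearson's r of log2 CPM over the 15 libraries of a line. These values were ranked over 9337 genes in NIH/3T3 and 9368 in CGR8, and the libraries share their depth and time groups. Differences between replicates enter r as well as those between times, so a high r need not mean a shared time course. Clock in CGR8, for example, was called at no time and spread widely between replicates. In NIH/3T3 the gene most like Nr1d1 was Ccn2 (r = 0.989), a serum-responsive matrix gene. That most like Nr1d2 was Fam107b (0.979), most like Cry1 Lactb (0.969) and most like Arntl Etfbkmt (0.965). Clock was most like Rasal2 (0.986), Per3 most like Luzp1 (0.973), Per2 most like Mgea5 (0.964), Per1 most like Sprtn (0.958) and Cry2 most like Snhg5 (0.924). In CGR8 the nearest genes were Klf13 for Nr1d1 (0.971), Oxsr1 for Nr1d2 (0.979), Rptor for Per1 (0.986), Pcm1 for Clock (0.980), Crtc2 for Cry2 (0.948) and Dcun1d3 for Cry1 (0.915). The lowest value was that of Arntl in CGR8 with Zfp146 (0.855), where Arntl itself moved least. No clock gene had the same nearest gene in both lines, but only the top gene of each ranking was compared, which does not measure how far the lines differ.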

How the data were processed

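RNA from 30 libraries (2 lines, 5 times, 3 replicates) was read from 1 table of raw counts per gene, which the authors deposited. The submitters' processing notes name STAR, DESeq2 and GRCm39, with no role or version. The counting tool, its strand setting and the annotation release are not given in the sources used here, and per the labels' protocols a stranded mRNA kit was used. Symbols were matched by Ensembl identifier without version (51880 rows, 90.7%, had one). Totals ran from 18.2 to 30.5 M counts (mean 24.2, SD 2.95), and low counts are the least precise.

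Counts were fitted in edgeR 4.0.16 (R 4.3.3) by the quasi-likelihood F test, per line with 1 coefficient per time, and over all 30 libraries for comparisons of lines. Genes were kept by filterByExpr (minimum count 10, minimum total 15), libraries were scaled by TMM factors, and p-values were adjusted by the Benjamini-Hochberg method over all genes tested. Intervals are 95%. CPM uses TMM-scaled totals of the line, and log2 CPM for likeness a prior count of 2. The clock genes, the wider list and the tests were chosen with earlier results of these data known, so they are not independent of them. All 10 clock genes are named. Of the wider list, those called whose mean in the line reached 1 CPM are named, at most the 3 largest rises and falls per line and time, and other values of a named gene are given beside. Some results for single genes of that list are not reported here. Alternatives were RLE factors, library size alone, DESeq2 1.42.0, voom in limma 3.58.1, no filter, a mean of at least 5 CPM, a block for the replicate letter, a fit restricted to the groups compared, and the omission of each library in turn.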

Additional observations from a re-analysis of the deposited data

Results flagged for a closer look

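These results are singled out because the change of the same gene from 0 h differed between the 2 lines by the interaction test in edgeR, at an adjusted p under 0.05. Each value is the log2 change in CGR8 minus that in NIH/3T3. At 1 and 2 h this was met by Nr1d1, with -1.14 and -2.85. At 5 h it was met by Per1 (-1.05), Per2 (-1.36), Cry1 (-0.87), Dbp (-1.06), Nr1d1 (-2.31), Nr1d2 (-1.42) and Arntl (-0.84). At 48 h it was met by Arntl (-1.16). The lines also differ in medium and in serum, so line and medium cannot be told apart, and the part of either was not tested.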

How the results depend on the processing

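Of the 150 results for single clock genes, 51 were called, 37 of them under every alternative and 14 lost under at least 1, and 32 of the 99 others were called under at least 1. Among results called in the main analysis 0 changed direction. Counts of clock genes called that moved by over 1.5 times are as follows. With no filter the count was 1 at 1 h in NIH/3T3, 5 at 2 h in NIH/3T3, 1 at 1 h in CGR8, 0 at 48 h in CGR8 and 3 for the line difference at 2 h. With library size alone it was 3 at 48 h in NIH/3T3. DESeq2 gave 1 at 1 h in NIH/3T3, 2 at 1 h in CGR8 and 2 for the line difference at 2 h, as did RLE factors and the filter at 5 CPM for the last. Voom gave 5 at 1 h and 6 at 2 h in NIH/3T3, 2 at 1 h and 8 from 5 to 48 h in CGR8, and 2, 3 and 4 for the line difference at 1, 2 and 48 h. The compared groups alone gave 1 at 2 h in CGR8. With each library left out in turn, counts ran from 0 to 2 at 1 h, 2 to 4 at 2 h, 5 to 7 at 5 h, 2 to 4 at 48 h and 5 to 5 from 5 to 48 h in NIH/3T3, from 0 to 0, 1 to 3, 3 to 4, 1 to 1 and 3 to 5 in CGR8, from 7 to 8 between the lines at 0 h, and from 1 to 1, 1 to 3, 6 to 7 and 1 to 1 for the line differences at 1, 2, 5 and 48 h. The cause of these moves was not tested. The replicate letter as a block lost 0 calls and added 1 (Per3 in NIH/3T3 at 2 h, for a count of 4). Deviations of same-letter libraries from their group means correlated with r from -0.30 to 0.33 in NIH/3T3 and from -0.58 to 0.42 in CGR8. Those of different letters had r from -0.39 to 0.37 and from -0.54 to 0.66. With 3 libraries per group such values cannot show whether the letters mark a pairing. Depth limits Per2 and Per3 in CGR8, at 11 to 63 counts per library.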

Other observations

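Some genes of the wider list had few counts. Bhlhe41, or DEC2, a relative of Bhlhe40, was at 0.0838 to 0.242 CPM at 0 h and 0.672 to 0.991 CPM at 48 h in CGR8, a log2 change of 2.31 ± 0.36 (edgeR adjusted p = 0.000191), and in NIH/3T3 its 48 h value was 0.33 ± 0.24 (adjusted p = 0.253). The line difference at 48 h was 1.96 ± 0.41 (adjusted p = 0.000852). Bhlhe41 was chosen here after its values were seen. Of the 10 markers of differentiated derivatives tested, 5 were higher and 3 lower at 48 h in CGR8, and their part in this value was not tested. Rorb, a relative of Rora, did not exceed 0.0980 CPM in any library of either line. Npas2, a paralog of Clock, did not exceed 0.404 CPM. Neither gene passed the filter on low counts that the main tests used.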
